A study of Mus musculus with 2 samples.

Results

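The interleukin 6 (IL-6) family was followed through 10 genes of 21041 in the expression matrix. These were the ligands Il6, Il11, Lif and Osm, the receptor chains Il6ra, Il6st, Osmr and Il11ra1, the transcription factor Stat3 and its feedback inhibitor Socs3. The genes were taken by name and not by a cut on a measured value, but with earlier results of these data known. All 10 had UMIs in the data. A UMI, or unique molecular identifier, marks 1 captured RNA molecule. Levels are given as UMIs of a gene per 10000 UMIs of a cell, averaged over the cells of a type, and a "share" is the percentage of cells with at least 1 UMI of the gene.

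Adenomas of the distal colon were taken from Apcmin;LSL-mTERT mice aged 25 weeks and sequenced as 1 droplet library labelled G4+T and 1 labelled G0+T. Both libraries therefore carry Apcmin, a truncating allele of the tumour suppressor Apc, and LSL-mTERT, a mouse telomerase gene behind a stop cassette that Cre recombinase removes. Neither the Cre driver nor the number of mice behind a library is stated in the labels. The deposited annotation puts 6189 cells in a class called CIN_high (CIN, chromosomal instability) and 7908 cells in CIN_low, and these 2 classes coincide with the 2 library suffixes of the cell barcodes. The names of all cells begin with G0, also in CIN_high, so neither class is equated here with the G4+T or the G0+T title. The 2 suffixes share 11 barcodes. Each class is thus 1 library, and a difference between them has no replicate check and cannot be told apart from a difference between mice, tissue pieces or preparations.

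The CIN_high library held 51868113 UMIs (median 6448 per cell) and the CIN_low library 74733715 (median 7154 per cell). The compared types had 1316 CIN_high and 1725 CIN_low epithelial cells, 602 CIN_high and 247 CIN_low endothelial cells, 83 CIN_high and 58 CIN_low pericytes, 2930 CIN_high and 5348 CIN_low myeloid cells, 234 CIN_high and 414 CIN_low T and NK cells, and 40 CIN_high and 93 CIN_low B cells. Fibroblasts numbered 966 in CIN_high and 21 in CIN_low, too few in CIN_low for a comparison. The labels were checked against marker lists, summed as UMIs per 10000. Epithelial markers reached 86.7 in the CIN_high and 84.3 in the CIN_low epithelium, endothelial markers 38.4 in CIN_high and 40.9 in CIN_low endothelial cells, pericyte markers 107.9 in CIN_high and 153.1 in CIN_low pericytes, fibroblast markers 122.5 in CIN_high and 140.4 in CIN_low fibroblasts, general myeloid markers 114.9 in CIN_high and 112.8 in CIN_low myeloid cells, and T and NK markers 22.6 in CIN_high and 34.0 in CIN_low T and NK cells. The 6 neutrophil markers, which include the very abundant S100a8 and S100a9, also reached 9.45 in CIN_high and 48.7 in CIN_low endothelial cells and 16.8 in CIN_high and 41.6 in CIN_low T and NK cells, above those types' own lists in CIN_low. The B label held only in part: the 4 B markers summed to 24.1 in CIN_high but to 5.73 in CIN_low B cells, where the neutrophil markers reached 25.4 in CIN_high and 36.1 in CIN_low. Values of B cells are therefore given for the label and not for a cell type.

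Cytokines of this family signal through a shared receptor subunit encoded by Il6st. IL-6 binds the Il6ra chain and IL-11 the Il11ra1 chain before joining Il6st, whereas LIF and mouse oncostatin M join Il6st with Lifr and Osmr as second chain. The assembled receptor activates Janus kinases, these phosphorylate STAT3, and STAT3 induces Socs3, which binds the receptor and blocks the kinases. In the intestine the family is known for stromal and immune signals that help the epithelium survive and regrow after injury.

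The sequences before a RefSeq transcription start of 3 ligands and of Socs3, a gene that STAT3 induces, are shown because they hold motifs of factors known to act on this family. They are RefSeq promoter windows of GRCm38.p6, which is the mm10 build, written 5′ to 3′ on the gene's strand and ended before any annotated exon. Il6 lies at chr5:30013114-30019981 on the plus strand, Il11 at chr7:4772373-4782859 on the minus strand, Lif at chr11:4257557-4272514 on the plus strand and Socs3 at chr11:117966079-117970047 on the minus strand. Capitals mark matches to 3 motifs searched on both strands, the AP-1 motif TGANTCA, the STAT motif TTCNNNGAA and the kappaB motif. The windows shown cover chr5:30012864-30013113 for Il6, chr7:4778142-4778391 for Il11, chr11:4257318-4257556 for Lif and chr11:117969452-117969616 for Socs3. The Il11 and Socs3 stretches lie inside the span of the annotated gene, outside its exons, and other annotated transcripts of both genes begin farther upstream. Il11 has a second window, chr7:4782808-4783107, which held none of the 3 motifs.
Il6: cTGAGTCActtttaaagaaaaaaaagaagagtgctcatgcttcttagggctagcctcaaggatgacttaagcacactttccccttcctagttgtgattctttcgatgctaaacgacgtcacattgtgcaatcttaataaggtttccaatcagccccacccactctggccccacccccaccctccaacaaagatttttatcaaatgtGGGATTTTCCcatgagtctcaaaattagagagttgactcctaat
Il11: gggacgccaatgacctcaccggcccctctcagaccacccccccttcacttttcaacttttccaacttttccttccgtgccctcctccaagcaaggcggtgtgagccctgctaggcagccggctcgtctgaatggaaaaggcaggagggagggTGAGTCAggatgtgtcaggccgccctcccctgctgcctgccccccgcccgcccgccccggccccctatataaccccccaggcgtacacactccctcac
Lif: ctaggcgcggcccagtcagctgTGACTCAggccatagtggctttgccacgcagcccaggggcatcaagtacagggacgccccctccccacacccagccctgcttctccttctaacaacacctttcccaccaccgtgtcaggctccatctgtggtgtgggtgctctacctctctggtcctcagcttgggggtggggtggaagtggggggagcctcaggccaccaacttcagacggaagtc
Socs3: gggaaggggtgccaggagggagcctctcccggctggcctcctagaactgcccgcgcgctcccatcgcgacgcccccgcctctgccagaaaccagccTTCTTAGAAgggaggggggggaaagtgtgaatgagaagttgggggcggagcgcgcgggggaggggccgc
The Il6 window held an AP-1 match beginning at base -249 from the transcription start and a kappaB match at -44, the Il11 window shown an AP-1 match at -98 and the Lif window an AP-1 match at -228. The Socs3 window held a STAT match at -154. Of the 9 genes with a promoter window of 300 bases (250 before and 50 after the start), 4 held the AP-1 motif, the fourth being Osmr with a match that begins at base 4 of the transcript. The motif was present for 8.97% of all 27025 genes with such windows. The STAT motif was found for Socs3 only among these 9 genes and for 9.55% of all genes, and the kappaB motif for Il6 only and for 5.14% of all genes. None of the 3 motifs overlapped another in these windows. Such matches describe letters and say nothing on binding in these cells. Osm has no window in the table used. It lies at chr11:4236420-4241026 beside Lif, 16.5 kb away on the same strand.

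The 4 ligands were spread over different compartments. Osm, which encodes oncostatin M, a cytokine of activated myeloid cells, averaged 1.96 UMIs per 10000 in CIN_high and 3.48 in CIN_low myeloid cells. Its share there was 43.0% in CIN_high (95% binomial interval 41.2 to 44.8) and 61.0% in CIN_low (59.7 to 62.3). No other named type exceeded 0.181 in CIN_high or 0.304 in CIN_low, and myeloid cells held 94.0% of all Osm UMIs in CIN_high and 95.6% in CIN_low. Endothelial cells, which are not a known source, had a share of 2.16% in CIN_high and 6.88% in CIN_low at median depths of 3715 UMIs per cell in CIN_high and 4456 in CIN_low, and a share at or below these is not read as expression of the gene.

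Il6, the founding ligand, had its highest levels in stromal cells of both libraries. Its level was 1.23 in CIN_high and 2.48 in CIN_low pericytes, 1.36 in CIN_high and 1.30 in CIN_low endothelial cells, 0.571 in CIN_high and 0.211 in CIN_low fibroblasts, and 0.238 in CIN_high and 0.450 in CIN_low myeloid cells. Ranked by summed UMIs, pericytes and endothelial cells had overlapping counting intervals in CIN_high, ahead of fibroblasts and then myeloid cells. In CIN_low, pericytes came first, endothelial cells next, and myeloid cells and fibroblasts overlapped. Epithelial cells were near 0, with 19 UMIs among 1316 CIN_high cells and 24 among 1725 CIN_low cells. The Il6 share of pericytes was 16.9% in CIN_high (9.54 to 26.7) and 50.0% in CIN_low (36.6 to 63.4). After thinning every cell to 2000 UMIs these shares were 12.1% in CIN_high and 24.6% in CIN_low, a smaller gap in the same order.

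Lif, the leukaemia inhibitory factor gene, had the highest epithelial share of the 4 ligands. Epithelial cells averaged 0.370 in CIN_high and 0.241 in CIN_low, and 26.1% of CIN_high (23.8 to 28.6) and 19.1% of CIN_low epithelial cells (17.2 to 21.0) had a UMI. Thinned to 2000 UMIs per cell, the shares were 6.0% in CIN_high and 4.04% in CIN_low. Myeloid cells averaged 0.0951 in CIN_high and 0.247 in CIN_low, and T and NK cells 0.176 in CIN_high and 0.209 in CIN_low. In both libraries the counting intervals of epithelial and of T and NK cells overlapped, and in CIN_low those of T and NK and of myeloid cells did too. Fibroblasts averaged 0.0501 in CIN_high, and the 21 CIN_low fibroblasts had 3 UMIs, all in 1 cell. Endothelial cells had 8 Lif UMIs in CIN_high and 1 in CIN_low.

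Il11, a ligand of fibroblasts, was sparse and concentrated in few cells. The CIN_high fibroblasts had 417 UMIs in 77 of 966 cells, and 1 cell alone held 148 of them, or 35.5%. The 21 CIN_low fibroblasts had 35 UMIs in 9 cells, 15 of them in 1 cell. Pericytes had 17 UMIs in 6 CIN_high cells and 67 UMIs in 6 CIN_low cells, and 1 CIN_low pericyte held 46 of the 67. Epithelial cells reached 44 UMIs in each library, with shares of 3.04% in CIN_high and 2.26% in CIN_low, against 7 UMIs in CIN_high and 16 in CIN_low myeloid cells. No Il11 UMI was found in T and NK cells, which allows up to 1.28% of CIN_high and 0.725% of CIN_low cells to have one.

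**Figure D1:**
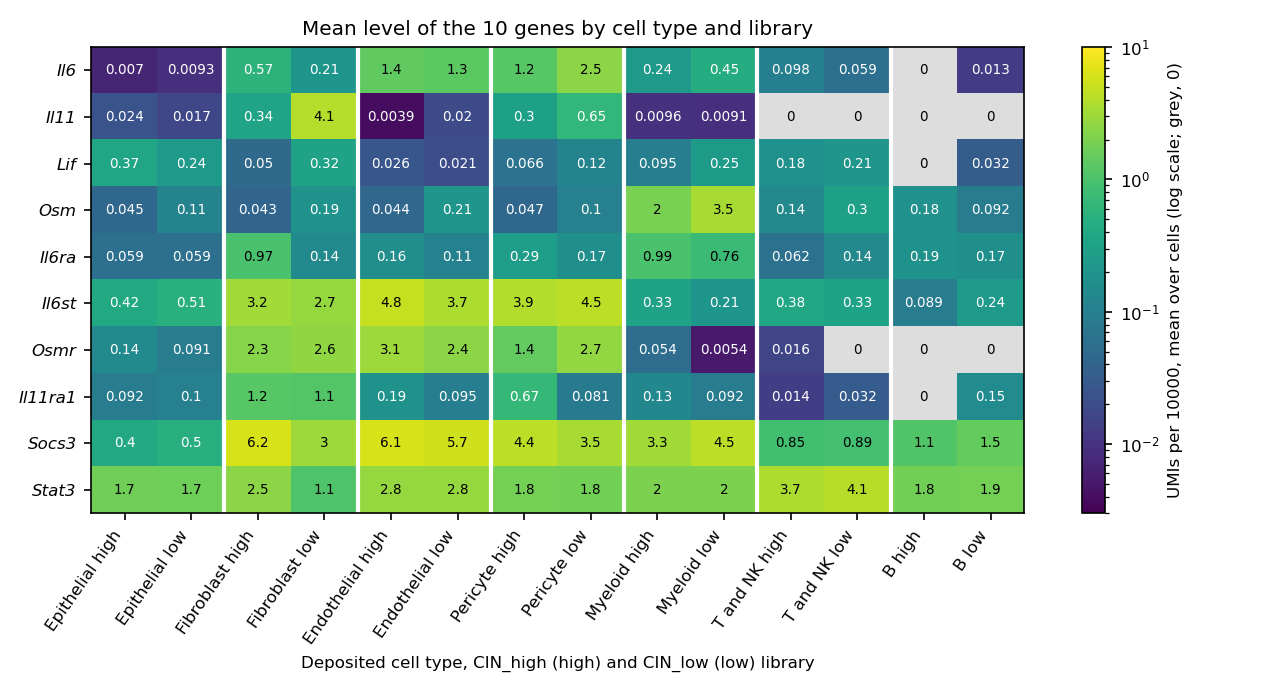
Mean level of each of the 10 genes (rows) in each deposited cell type and library (columns, CIN_high left of CIN_low), in UMIs per 10000 on a logarithmic colour scale with 0 in grey. Osm stands out in myeloid cells (1.96 in CIN_high, 3.48 in CIN_low), Il6st and Osmr in the stromal columns, and Stat3 is present in every column.

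The receptor chains had a stromal pattern that the ligands only partly shared. Il6st, the common signalling subunit, averaged 4.84 in CIN_high and 3.70 in CIN_low endothelial cells, 3.87 in CIN_high and 4.47 in CIN_low pericytes, and 3.23 in CIN_high and 2.75 in CIN_low fibroblasts. Shares in these types ran from 66.9% (endothelial) to 81.4% (fibroblasts) in CIN_high and from 60.3% (endothelial) to 87.9% (pericytes) in CIN_low. Epithelial cells averaged 0.418 in CIN_high and 0.513 in CIN_low, T and NK cells 0.383 in CIN_high and 0.330 in CIN_low, and myeloid cells 0.326 in CIN_high and 0.213 in CIN_low. The order was endothelial, then pericytes and fibroblasts with overlapping intervals in CIN_high, and pericytes and endothelial cells overlapping ahead of fibroblasts in CIN_low.

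Osmr, the oncostatin M receptor chain, was found mainly in stromal and, at a lower level, epithelial cells. It averaged 3.05 in CIN_high and 2.42 in CIN_low endothelial cells, 2.26 in CIN_high and 2.59 in CIN_low fibroblasts, 1.44 in CIN_high and 2.67 in CIN_low pericytes, and 0.141 in CIN_high and 0.0910 in CIN_low epithelial cells. T and NK cells had 1 UMI in CIN_high and 0 in CIN_low, and B cells none. Myeloid cells had 71 UMIs in 33 CIN_high cells, 38.0% of them in 1 cell, and 15 UMIs in 15 CIN_low cells. The 6 fibroblast markers, which are all detected there, summed to 1.33 UMIs per 10000 in CIN_high and 0.0572 in CIN_low myeloid cells, and their part in the Osmr UMIs was not tested. Osm and Osmr were thus highest in different types.

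Il6ra, the IL-6 binding chain, had a myeloid and a fibroblast level. Myeloid cells averaged 0.986 in CIN_high and 0.761 in CIN_low, with shares of 35.8% in CIN_high and 34.6% in CIN_low. Fibroblasts averaged 0.972 in CIN_high, where 45% of cells had a UMI, and 0.139 in the 21 CIN_low cells, from 2 UMIs. Pericytes had 12 UMIs in CIN_high and 9 in CIN_low, and epithelial cells averaged 0.0588 in CIN_high and 0.0592 in CIN_low. Il11ra1, the IL-11 binding chain, averaged 1.21 in CIN_high and 1.14 in CIN_low fibroblasts, with shares of 46.0% in CIN_high and 33.3% in CIN_low. Pericytes averaged 0.673 in CIN_high, from 25 UMIs, and 0.0815 in CIN_low, from 6 UMIs. Near-identical copies of Il11ra1 exist in the mouse genome, so its counts are uncertain.

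Receptors act in pairs, so the shares of cells with both chains were counted. Il6st and Osmr were found together in 57.7% of CIN_high fibroblasts (54.5 to 60.8), 43.9% of CIN_high endothelial cells (39.9 to 47.9) and 38.6% of CIN_high pericytes (28.1 to 49.9). In CIN_low the pair was found in 38.1% of fibroblasts (18.1 to 61.6), 34.4% of endothelial cells (28.5 to 40.7) and 63.8% of pericytes (50.1 to 76.0). Epithelial cells had both chains in 6.61% of CIN_high and 5.57% of CIN_low cells, and myeloid cells in 0.580% of CIN_high and 0.0187% of CIN_low cells. Il6st with Il6ra was found in 356 of 966 CIN_high fibroblasts and in 1 of 21 CIN_low fibroblasts, whereas myeloid cells had 5.67% in CIN_high and 5.63% in CIN_low. The Il6st and Il11ra1 pair had shares of 39.0% in CIN_high and 28.6% in CIN_low fibroblasts, and of 16.9% in CIN_high and 10.3% in CIN_low pericytes. These are shares of cells with a UMI of both genes, which depend on depth and hold any background UMIs.

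Lifr, the chain that LIF uses, was outside the 10 genes but completes the receptor picture. Fibroblasts averaged 1.68 in CIN_high and 1.13 in CIN_low, endothelial cells 1.57 in CIN_high and 0.812 in CIN_low, and epithelial cells 0.0778 in CIN_high and 0.0723 in CIN_low. The epithelial cells with Lif UMIs thus belonged to a type with little Lifr RNA.

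Stat3 and Socs3, the signal carrier and its inhibitor, differed in how evenly they were spread. Stat3 was found in every type. T and NK cells had the highest level, 3.71 in CIN_high and 4.14 in CIN_low, followed by endothelial cells at 2.81 in CIN_high and 2.78 in CIN_low. Epithelial cells averaged 1.74 in CIN_high and 1.66 in CIN_low, with a UMI in 79.9% of CIN_high and 83.4% of CIN_low cells. Socs3 was high in stromal and myeloid cells, at 6.15 in CIN_high and 5.65 in CIN_low endothelial cells, 6.22 in CIN_high and 3.03 in CIN_low fibroblasts, and 4.43 in CIN_high and 3.48 in CIN_low pericytes. Myeloid cells averaged 3.30 in CIN_high and 4.49 in CIN_low. Epithelial cells were lowest, at 0.402 in CIN_high and 0.502 in CIN_low, and T and NK cells had 0.852 in CIN_high and 0.891 in CIN_low. The type with the most Stat3 RNA was therefore among those with the least Socs3.

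The types that held a gene's UMIs differed between the libraries, and so did the cell makeup. Fibroblasts were 15.6% of cells in CIN_high and 0.266% in CIN_low, and myeloid cells 47.3% in CIN_high and 67.6% in CIN_low. Fibroblasts held 32.3% of all Il6 UMIs in CIN_high and 0.178% in CIN_low, and myeloid cells 33.6% in CIN_high and 79.7% in CIN_low. Osmr UMIs came from fibroblasts for 58.1% in CIN_high and 5.57% in CIN_low, and from endothelial cells for 26.7% in CIN_high and 40.2% in CIN_low. Lif UMIs came from epithelial cells for 76.4% in CIN_high and 47.0% in CIN_low, and from myeloid cells for 16.8% in CIN_high and 49.1% in CIN_low. Socs3 UMIs came from fibroblasts for 34.8% in CIN_high and 0.359% in CIN_low, and from myeloid cells for 42.1% in CIN_high and 84.1% in CIN_low. Osm and Il6ra UMIs were mainly myeloid in both libraries, those of Il6ra for 64.3% in CIN_high and 91.7% in CIN_low. A total per library mixes cell numbers with levels, and the comparison was made within types.

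**Figure D2:**
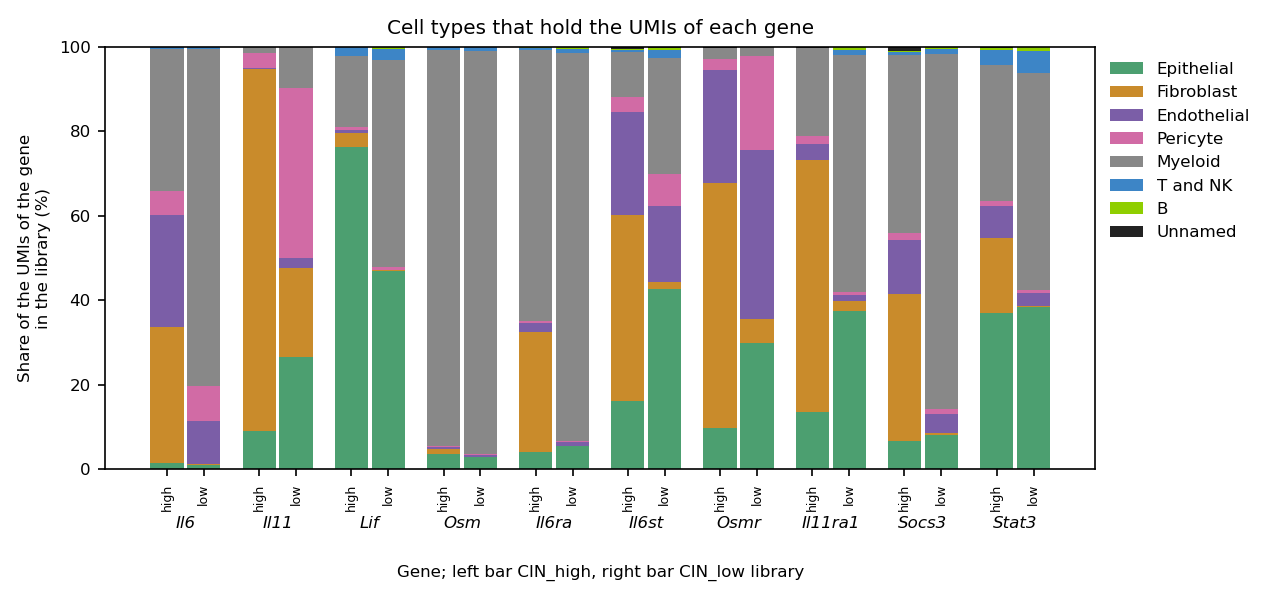
Share of each gene's UMIs (vertical axis, percent of all its UMIs in a library) held by each deposited cell type, with the CIN_high bar left of the CIN_low bar for each gene. Fibroblast segments are tall in CIN_high for Il11, Il6st, Osmr and Il11ra1 and thin in CIN_low, where 21 fibroblasts were captured.

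Within types, the 2 libraries were compared by the ratio of mean levels, CIN_high over CIN_low. A gene counted as measured in a type with a UMI in at least 2% of the cells of 1 class and at least 10 UMIs over both, and as different at 1.5-fold or more. Intervals are 95% exact conditional binomial intervals of the ratio of summed UMIs. They cover counting error only, and a ratio of means can lie outside them where few deep or shallow cells hold the UMIs.

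In myeloid cells, 3 of 8 measured genes were lower in CIN_high and 1 was higher, where 3.3% of 9772 measured genes were lower and 7.83% higher (11.1% in either direction). All 3 lower genes were ligands. Osm had a ratio of 0.564 (interval 0.528 to 0.571), Il6 of 0.529 (0.436 to 0.539) and Lif of 0.385 (0.336 to 0.475). The Il6 share was 5.90% in CIN_high and 8.25% in CIN_low, and the Lif share 3.17% in CIN_high and 6.08% in CIN_low. Il6st was the higher gene, with a ratio of 1.53 but an interval of 1.12 to 1.39, and with 1.35 once cells with any fibroblast marker UMI were left out. Socs3 stayed within 1.5-fold at 0.735 (0.662 to 0.705), and Stat3 had a ratio of 0.989. The median log2 ratio was -0.23 over the 8 genes and 0.22 over all measured genes. Relative to that median over all genes, Socs3 had a ratio of 0.632 and was past 1.5-fold, Il6st had 1.32 and was within it, and the 3 ligands ran from 0.331 (Lif) to 0.485 (Osm).

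In epithelial cells, 2 of 9 measured genes were higher in CIN_high and 1 was lower, where 4.16% of 13304 measured genes were higher and 7.7% lower (11.9% in either direction). Lif had a ratio of 1.54 (1.27 to 1.56), and Osmr one of 1.55 (1.48 to 2.14), from 264 UMIs in CIN_high and 220 in CIN_low. Osm was the lower gene at 0.400 (0.421 to 0.638), from 127 UMIs in CIN_high and 363 in CIN_low. The neutrophil marker list moved with it, with all 6 markers detected and sums of 6.33 in the CIN_high and 17.6 in the CIN_low epithelium. The 12 mononuclear markers summed to 23.3 in CIN_high and 27.3 in CIN_low, and the Osm ratio was 0.358 without the 71 CIN_high and 173 CIN_low epithelial cells high in myeloid markers and 0.419 without the Complement+ subtype. Fibroblast markers, 6 detected in CIN_high and 5 in CIN_low, summed to 0.549 in CIN_high and 0.030 in CIN_low, and their part in the Osmr value was not tested. With the epithelial subtype mix held equal, the Lif ratio was 1.40 and the Osmr ratio 1.29, both under the 1.5-fold line, and the Osm ratio was 0.610. By summed UMIs the Lif ratio was 1.41. Il6st (0.815), Socs3 (0.801) and Stat3 (1.05) were within it.

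In endothelial cells, 2 of 8 measured genes were higher in CIN_high and 1 was lower, where 12.9% of 11010 genes were higher and 18.8% lower (31.8% in either direction). Il11ra1 had a ratio of 2.05 (1.26 to 4.93), from 52 UMIs in CIN_high and 12 in CIN_low. Il6ra had 1.54 by means, but 1.38 on the blood marker side and an interval of 0.607 to 1.68 that includes 1. Lymphatic markers, all 5 detected, summed to 51.9 in CIN_high and 16.4 in CIN_low endothelial cells, with 4 of 5 higher, and blood endothelial markers to 64.2 in CIN_high and 58.9 in CIN_low. Osm had 0.207 (0.0885 to 0.282), and neutrophil markers in these cells summed to 9.45 UMIs per 10000 in CIN_high and 48.7 in CIN_low. Without the 37 CIN_high and 104 CIN_low endothelial cells high in myeloid markers, the Osm ratio was 0.910. The endothelial genes of greatest level stayed within 1.5-fold. Il6 had a ratio of 1.05 by means but 0.820 by summed UMIs (0.692 to 0.974), so its direction depended on the measure. Il6st had 1.31 (1.09 to 1.33), Osmr 1.26 (1.19 to 1.57), Socs3 1.09 and Stat3 1.01.

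Pericytes had the most differences, 5 of 10 measured genes lower in CIN_high and 2 higher, in a comparison where 21.0% of 9188 genes were lower and 22.1% higher (43.1% in either direction). Il6 had a ratio of 0.495 (0.346 to 0.604), from 75 UMIs in CIN_high and 184 in CIN_low. Osmr had a ratio of 0.538 (0.370 to 0.656), from 72 UMIs in CIN_high and 164 in CIN_low, with shares of 43.4% in CIN_high and 70.7% in CIN_low. Il11 had 0.466 (0.157 to 0.492), which was 0.959 without the top cell of each library. Lif had 0.569, from 6 UMIs in CIN_high and 10 in CIN_low. Osm had 0.457, from 2 UMIs in CIN_high and 12 in CIN_low, and turned to 1.19 without the top cells and to 5.23 without the cells high in myeloid markers. Il11ra1 was higher at 8.26 (1.88 to 14), and Il6ra at 1.69 with an interval of 0.581 to 4.04, from 12 UMIs in CIN_high and 9 in CIN_low. Without the 5 CIN_high and 9 CIN_low pericytes high in myeloid markers, the Il6ra ratio was 18.35. That value rests on no more than these few UMIs and has no interval, so it is not read as a larger difference. Fibroblast markers, all 6 detected, summed to 39.7 UMIs per 10000 in CIN_high and 69.6 in CIN_low pericytes, and the pericyte markers differed as given above. The part of these in the Il6 and Osmr ratios was not tested. Il6st (0.867), Socs3 (1.27) and Stat3 (1.03) were within 1.5-fold.

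Lymphocytes had few measured genes of the family. Of 6 measured in T and NK cells, 2 were lower in CIN_high and none was higher, where 16.9% of 9837 genes were lower and 12.9% higher (29.8% in either direction). These were Osm at 0.453 (0.197 to 0.594) and Il6ra at 0.462 (0.176 to 0.966), the second from 8 UMIs in CIN_high and 35 in CIN_low. The neutrophil marker sums of these cells are given above, and the Osm ratio was 0.755 without the cells high in myeloid markers. Stat3, high in these cells, had a ratio of 0.895. In cells labelled B, 1 of 5 was higher and 1 lower, where 31.3% of 7050 genes were higher and 23.1% lower (54.4% in either direction), and both, Osm at 1.98 and Il6st at 0.368, rested on under 30 UMIs and were within 1.5-fold by summed UMIs.

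**Figure D3:**
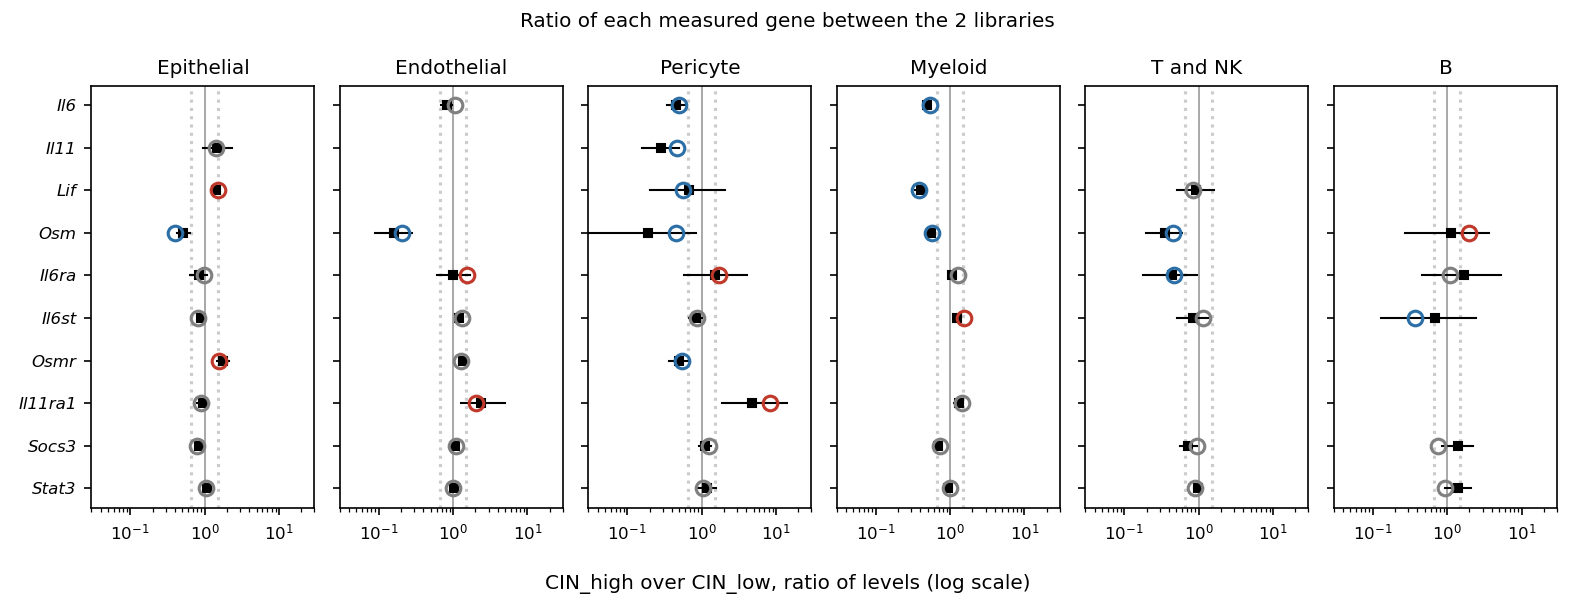
Ratio of CIN_high over CIN_low (logarithmic horizontal axis) for each measured gene in 6 cell types. Black squares with bars are ratios of summed UMIs with 95% counting intervals, cut at the axis ends, and circles are ratios of mean levels, red where at least 1.5-fold higher in CIN_high, blue where lower and grey between the dotted 1.5-fold lines. The circles of the myeloid ligands lie left of the lines (Lif at 0.385), those of epithelial Lif and Osmr just right of them. The circles of Stat3 lie near 1 in all 6 panels.

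Stat3 stayed close to 1 throughout, with ratios from 0.895 in T and NK cells to 1.05 in epithelial cells over the 6 types. Socs3 ranged from 0.735 in myeloid cells to 1.27 in pericytes. By ratios of means over all cells of a type, neither Stat3 nor Socs3 reached 1.5-fold in any of the 6 types. Each of the other 8 genes did so in at least 1. Of all measured genes, the share past 1.5-fold in either direction ran from 11.1% in myeloid cells to 54.4% in cells labelled B. How many of all genes did so in at least 1 type was not counted. For some of the 8 genes, reaching 1.5-fold depended on the measure or on few UMIs. Il11 reached it only in pericytes, where it had 0.959 without the top cells. Il6st did so only in myeloid cells, at 1.25 by summed UMIs, and in cells labelled B. Relative to the median over all measured genes, Socs3 passed the line in myeloid cells (0.632).

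The epithelial values were then split by the 7 deposited subtypes with at least 30 cells in each class. Lif was broadly spread. In Cancer_cell_1, the most numerous subtype with 549 CIN_high and 710 CIN_low cells, it averaged 0.411 in CIN_high and 0.261 in CIN_low (ratio 1.58, interval 1.35 to 1.89). Stem_cell_1 averaged 0.452 in CIN_high and 0.332 in CIN_low (1.36, 1.01 to 1.46). Secretory cells had the highest level, 0.555 in CIN_high from 49 UMIs and 0.688 in CIN_low from 66 UMIs. The p57+ cancer cells stood at the other end, with 1 UMI among 77 CIN_high cells and 14 among 211 CIN_low cells. The Lif ratio was above 1 in 5 of the 7 subtypes and below 1 in secretory and p57+ cells.

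Osmr followed Lif only in part. Of the 7 subtypes, Stem_cell_1 had the highest level in CIN_high, 0.198, against 0.167 in CIN_low, and enterocytes had 0.143 in CIN_high and 0.176 in CIN_low. Cancer_cell_1 averaged 0.134 in CIN_high and 0.0772 in CIN_low (ratio 1.74, interval 1.19 to 2.34). In p57+ cells there were 2 UMIs in CIN_high and 19 in CIN_low. The Igfbp+ subtype, found as 25 cells in CIN_high and none in CIN_low, averaged 0.589 from 30 UMIs, and without this and the S100a8 subtype the Osmr ratio over all epithelial cells was 1.46.

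The p57+ cancer cells, named for the cell cycle inhibitor p57, had the highest receptor subunit and Stat3 levels of the 7 subtypes. Il6st averaged 1.20 in CIN_high and 0.959 in CIN_low p57+ cells, against 0.461 in CIN_high and 0.583 in CIN_low Cancer_cell_1. Stat3 averaged 2.64 in CIN_high and 2.09 in CIN_low p57+ cells, and 0.956 in CIN_high and 1.41 in CIN_low enterocytes, the lowest in CIN_high. Socs3 was 0.751 in CIN_high and 0.927 in CIN_low p57+ cells, and 0.222 in CIN_high and 0.223 in CIN_low Cancer_cell_1. Proliferating cells had a Socs3 level of 0.418 in CIN_high and 0.279 in CIN_low, from 121 UMIs in CIN_high and 140 in CIN_low.

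Complement+ stem cells had the highest Osm level of the 7 subtypes. They averaged 0.697 in CIN_high, where 17 of 39 cells held 54 of the 127 epithelial Osm UMIs, and 1.12 in CIN_low, where 56 of 85 cells held 213 of 363, while Cancer_cell_1 averaged 0.0168 in CIN_high and 0.0254 in CIN_low. The 12 mononuclear markers, all detected, summed in Complement+ stem cells to 218.9 UMIs per 10000 in CIN_high and 162.3 in CIN_low, against 12.5 in CIN_high and 16 in CIN_low Cancer_cell_1. Their epithelial markers summed to 43.5 in CIN_high and 52.8 in CIN_low. This subtype also had the highest Socs3 level, 1.09 in CIN_high and 1.55 in CIN_low. The part of the myeloid markers in these values was not tested.

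Counts of differing genes varied by subtype, as did the share among all measured genes. Of 9 measured genes in Cancer_cell_1, 3 were higher in CIN_high and 1 lower, where 5.98% of all measured genes were higher and 8.48% lower (14.5% in either direction). The lower gene was Osm, at 0.661 by means but 2.06 by summed UMIs (1.20 to 3.59), so its direction depended on the measure. It had 35 UMIs in 6 CIN_high cells and 25 UMIs in 23 CIN_low cells. In Stem_cell_1 none of 9 differed, where 8.54% were higher and 12.9% lower (21.4%). Proliferating cells had 3 higher and 1 lower of 9, where 8.6% were higher and 12.3% lower (20.9%). Complement+ stem cells had 3 higher and 2 lower of 9, where 11.2% were higher and 18.1% lower (29.4%). Enterocytes had 3 lower of 8, where 13.1% were higher and 20.9% lower (34.1%). Secretory cells had 1 higher and 3 lower of 8, where 15.6% were higher and 21.7% lower (37.3%), and p57+ cells had 3 lower of 8, where 11.9% were higher and 16.4% lower (28.3%). The 7 subtypes together gave 10 higher and 13 lower ratios, and 12 ratios differed when at least 30 UMIs were asked for.

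**Figure D4:**
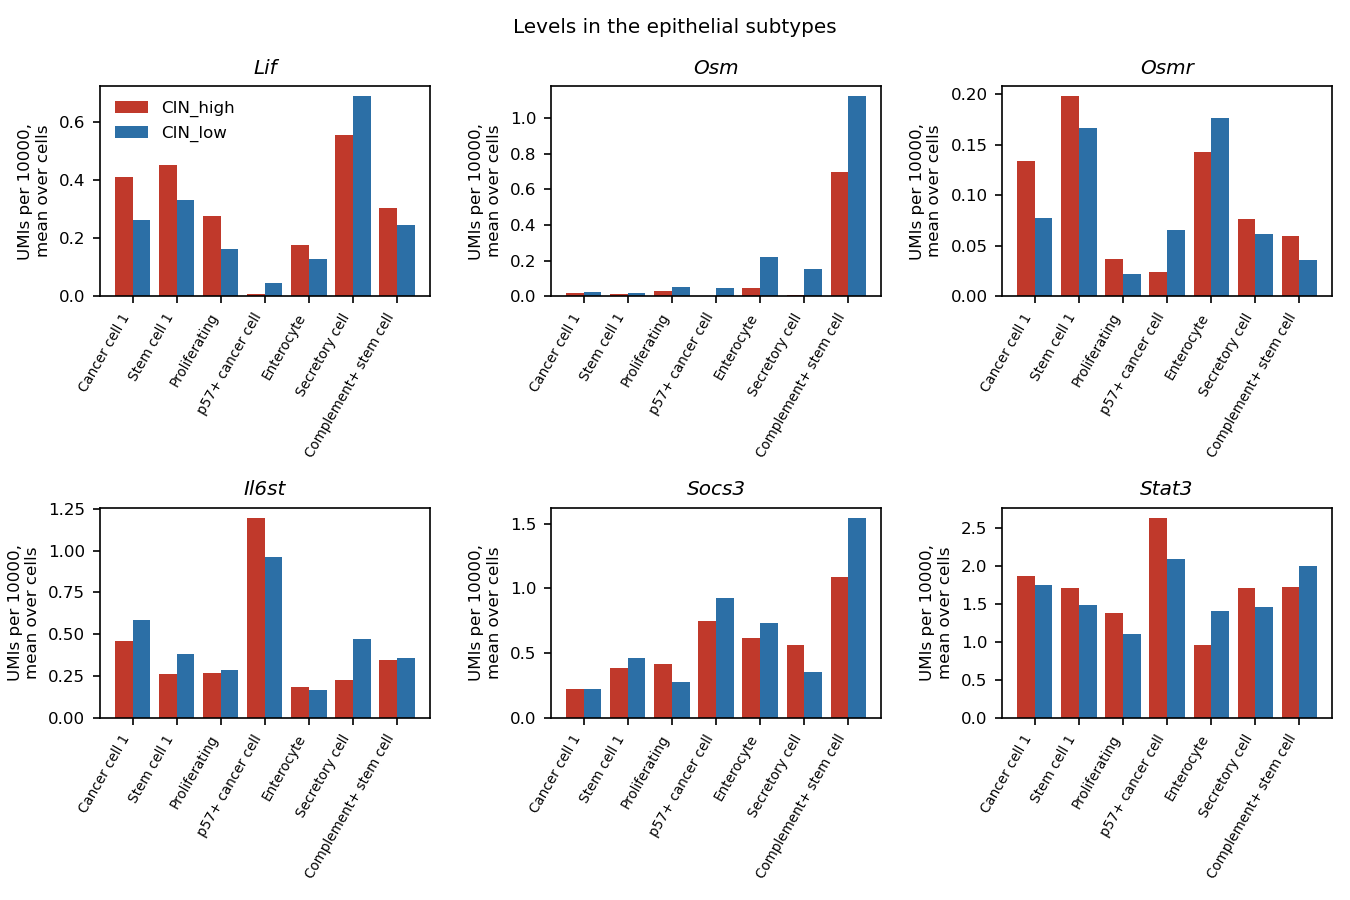
Mean levels of 6 genes (UMIs per 10000) in the 7 epithelial subtypes, CIN_high bar left of CIN_low bar, with each vertical axis starting at 0. Lif is low in p57+ cancer cells, which have the tallest Il6st and Stat3 bars, and Osm is highest in Complement+ stem cells (0.697 in CIN_high, 1.12 in CIN_low).

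Myeloid cells were divided by whether the neutrophil or the mononuclear marker list had the larger sum. These sides are ranges of a score and not cell types, and 1.79% of CIN_high and 3.34% of CIN_low cells on the neutrophil side lay within 2-fold of the dividing line. Cells with equal sums, 22 in CIN_high and 21 in CIN_low, were left out. The neutrophil side held 669 CIN_high and 2097 CIN_low cells and the mononuclear side 2239 CIN_high and 3230 CIN_low cells. Osm was lower in CIN_high on both sides. It averaged 2.0 in CIN_high and 3.73 in CIN_low on the neutrophil side (ratio 0.538), and 1.96 in CIN_high and 3.30 in CIN_low on the mononuclear side (0.595). Il6 belonged mainly to the mononuclear side, at 0.297 in CIN_high and 0.655 in CIN_low (0.453), and stood at 0.0454 in CIN_high and 0.110 in CIN_low on the neutrophil side. Lif averaged 0.113 in CIN_high and 0.309 in CIN_low on the mononuclear side, and had 7 UMIs in CIN_high and 144 in CIN_low on the neutrophil side. All 3 ligands were thus lower in CIN_high on each side. On the mononuclear side, 3 of 8 measured genes were lower and none higher, where 2.23% of all measured genes were lower and 3.48% higher (5.7% in either direction). On the neutrophil side 3 of 7 were lower and 2 higher, where 11.7% were lower and 21.1% higher (32.8%).

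The receptors behaved otherwise. Il6ra was higher in CIN_high on the neutrophil side, at 1.31 in CIN_high and 0.621 in CIN_low (ratio 2.11, interval 1.78 to 2.45), and differed little on the mononuclear side, at 0.886 in CIN_high and 0.855 in CIN_low. Il6st was a mononuclear transcript, at 0.397 in CIN_high and 0.311 in CIN_low there, and 0.0890 in CIN_high and 0.0565 in CIN_low on the neutrophil side. Socs3 was higher on the neutrophil side, at 5.04 in CIN_high and 5.46 in CIN_low, and stood at 2.80 in CIN_high and 3.85 in CIN_low on the mononuclear side. Stat3 was likewise highest on the neutrophil side, at 3.03 in CIN_high and 2.63 in CIN_low.

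Fibroblasts of CIN_high were divided the same way by telocyte and other fibroblast markers, the first being subepithelial cells that release morphogens. Of their 418 Il6 UMIs, 416 lay on the other fibroblast side (785 cells) and 2 on the telocyte side (174 cells). Il11 differed by measure. Its UMIs numbered 306 in 10 telocyte-side cells, 48.4% of them in 1 cell, and 110 in 66 cells of the other side. Its share of cells was 5.75% (2.79 to 10.3) on the telocyte side and 8.41% (6.56 to 10.6) on the other side, with overlapping intervals. Most cells with Il11 lay on the other side, which also held most of the divided cells. Il11ra1 averaged 2.35 on the telocyte side and 0.967 on the other side, whereas Il6st averaged 2.98 on the telocyte side and 3.29 on the other side, and Osmr 2.43 on the telocyte side and 2.21 on the other side. Within 2-fold of the dividing line lay 17.2% of the telocyte-side cells.

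Blood and lymphatic endothelial markers separated Il6 as clearly. On the blood side Il6 averaged 1.74 in 467 CIN_high cells and 1.43 in 223 CIN_low cells, and on the lymphatic side 0.0508 in 132 CIN_high cells and 0.115 in 22 CIN_low cells, from 2 UMIs each. Osmr was present on both, at 3.09 in CIN_high and 2.45 in CIN_low on the blood side and 2.98 in CIN_high and 2.37 in CIN_low on the lymphatic side. Socs3 averaged 7.25 in CIN_high and 5.85 in CIN_low on the blood side, and 2.29 in CIN_high and 3.77 in CIN_low on the lymphatic side. On the blood side, 1 of 8 measured genes was higher in CIN_high and 1 lower, where 12.4% of all measured genes were higher and 20.5% lower (32.9% in either direction).

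**Figure D5:**
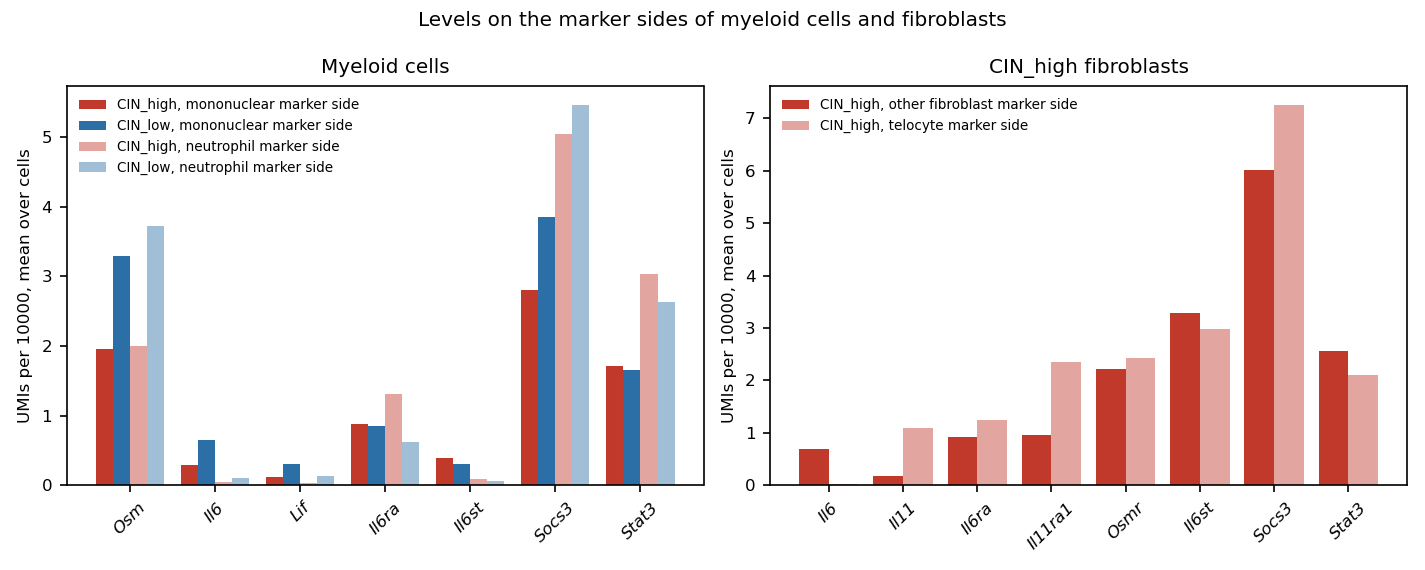
Mean levels (UMIs per 10000) in myeloid cells divided by marker sums, CIN_high bars left of CIN_low bars (left panel), and in CIN_high fibroblasts divided into other fibroblast and telocyte marker sides (right panel). Osm is lower in CIN_high on both myeloid sides, and in fibroblasts the mean of Il11 is higher on the telocyte side, where it rests on 10 cells with a UMI.

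The wider pathway was read through 8 lists of genes. Among 8 other ligands and partners, 4 were measured in epithelial cells, and 2 were higher in CIN_high, with a list median log2 ratio of 0.61 against -0.097 over all measured genes. Clcf1, a cytokine that signals through Lifr and Il6st, averaged 0.106 in CIN_high and 0.0421 in CIN_low (ratio 2.52, interval 2.32 to 3.57), and Cntf, of the same receptor group, 0.0196 in CIN_high and 0.00918 in CIN_low (2.13, 1.04 to 2.88). Among all measured genes of epithelial cells, 4.16% were higher and 7.7% lower. Of the 4 ligands among the 10 genes, Lif was higher there by means (1.54). It was within 1.5-fold by summed UMIs (1.41) and with the subtype mix held equal (1.40). Osm was lower at 0.400. In myeloid cells 3 of the list were measured and 1 was lower, where 3.3% of all measured genes were lower and 7.83% higher. It was Il27, a cytokine subunit of dendritic cells and macrophages, at 0.0399 in CIN_high and 0.0626 in CIN_low. Of the receptors outside the 10 genes, Lifr was higher in CIN_high endothelial cells (1.93, 1.62 to 2.47). In myeloid cells Lifr had 1.59 by means, but an interval of 1.10 to 1.41 that lies under 1.5. Its log2 ratio there was 0.67 against 0.22 over all measured genes. Fibroblast markers summed to 1.33 in CIN_high and 0.0572 in CIN_low myeloid cells, and their part in this ratio was not tested.

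Among kinases and signal carriers none of 11 measured genes reached 1.5-fold in epithelial cells (median log2 ratio -0.14) or in myeloid cells (0.20). Of all measured genes, 11.9% did so in epithelial and 11.1% in myeloid cells. In endothelial cells 1 of 11 was higher and 1 lower, where 12.9% of all measured genes were higher and 18.8% lower. The lower one was Jak2, a kinase of these receptors, at 0.898 in CIN_high and 1.37 in CIN_low. Of 7 restraints 1 was lower and none higher in epithelial cells (median -0.24), where 7.7% of all measured genes were lower and 4.16% higher. It was Socs1, a sister inhibitor of Socs3, at 0.0504 in CIN_high and 0.110 in CIN_low (0.456, 0.424 to 0.646). In T and NK cells 2 of 7 restraints were higher and none lower, where 12.9% of all measured genes were higher and 16.9% lower. Socs1 was 1 of these 2, at 0.638 in CIN_high and 0.328 in CIN_low (1.95, 1.16 to 2.36). Cish, another family member, was higher in endothelial cells at 0.578 in CIN_high and 0.352 in CIN_low. The receptor sheddases Adam10 and Adam17, which release soluble Il6ra, were within 1.5-fold in epithelial and myeloid cells, and Adam17 was lower in endothelial cells at 0.491 in CIN_high and 0.772 in CIN_low.

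The list of genes known as STAT3 targets had members on both sides. In epithelial cells 1 of 20 was lower and none higher in CIN_high, with a median log2 ratio of -0.11 against -0.097 over all measured genes. Myeloid cells had 4 of 19 lower and 1 higher (median -0.26 against 0.22 over all), endothelial cells 5 of 18 lower and 2 higher (-0.21 against -0.051), pericytes 7 of 19 lower and 2 higher (-0.23 against 0.014), and T and NK cells 4 of 18 lower and 1 higher (-0.30 against -0.028). Among all measured genes, the lower share was 7.7% for epithelial cells, 3.3% for myeloid cells, 18.8% for endothelial cells, 16.9% for T and NK cells and 21.0% for pericytes. Saa3, an acute phase protein gene, was among the lower genes in all 5 types, for example at 1.29 in CIN_high and 3.76 in CIN_low myeloid cells and 0.0399 in CIN_high and 0.112 in CIN_low epithelial cells. In pericytes it averaged 0.588 in CIN_high and 9.04 in CIN_low, and Lcn2, an iron-sequestering protein gene, 0.966 in CIN_high and 5.76 in CIN_low. Fgl2, which encodes a secreted fibrinogen-like protein, went against this in endothelial cells, at 7.47 in CIN_high and 1.76 in CIN_low. Lcn2 is also known as a neutrophil granule gene, and the neutrophil markers summed to 14.3 in CIN_high and 25.9 in CIN_low pericytes and to 423.9 in CIN_high and 783.0 in CIN_low myeloid cells, beside the sums given above for the other types. Their part in these ratios was not tested.

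Genes known to induce the family's ligands were next. In myeloid cells 3 of 5 were lower and none higher (median log2 ratio -0.64 against 0.22 over all), where 3.3% of all measured genes were lower. Il1a, an alarm cytokine, averaged 2.84 in CIN_high and 5.99 in CIN_low, and Ptgs2, the inducible prostaglandin synthase, 6.22 in CIN_high and 11.1 in CIN_low. Tnf, the tumour necrosis factor gene, averaged 1.63 in CIN_high and 2.54 in CIN_low. Il1b was the most abundant, at 55.1 in CIN_high and 80.0 in CIN_low, within 1.5-fold. In epithelial cells 3 of 5 were lower (median -0.90 against -0.097 over all), where 7.7% of all measured genes were lower. In Cancer_cell_1, 2 of 5 were lower, where 8.48% of all measured genes were lower. The list summed there to 1.535 in CIN_high and 1.751 in CIN_low. In Complement+ stem cells it summed to 28.2 in CIN_high and 30.1 in CIN_low. Neutrophil markers summed to 6.33 in the CIN_high and 17.6 in the CIN_low epithelium, and their part in these ratios was not tested. Immediate early and dissociation stress genes, known to rise when tissue is handled warm, had 1 of 16 lower in myeloid cells and 2 of 16 lower in epithelial cells. In CIN_high pericytes 6 of 16 were higher and 1 lower (median 0.54 against 0.014 over all), where 22.1% of all measured genes were higher and 21.0% lower, with Dusp1 at 7.38 in CIN_high and 4.22 in CIN_low and Ier3 at 4.69 in CIN_high and 8.85 in CIN_low. The part of these genes in the pericyte values of Il6 was not tested.

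Genes with the most similar pattern were sought over the 13 profiles of a type and library with at least 30 cells, by Pearson's r of the log2 level among 9134 genes. These profiles share 2 libraries, so r is a description. Osm was most like Mcemp1 (r = 0.978) and Pla2g7 (0.978), followed by the neutrophil gene S100a9 (0.974). Il6 was most like Sh3bgrl (0.968), Stx2 (0.959) and Ttc7b (0.947), and Il11 like Cd248 (0.992), Rem1 (0.989) and Vstm4 (0.988). Il6st was most like Iigp1 (0.984), Tcf7l1 (0.978) and its partner Osmr (0.977), while Osmr was most like Amotl1 (0.991) and Cavin1 (0.990). Lif had the weakest leading match among the ligands, Cox6b1 (0.927). Il6ra was most like Rab7b (0.929), Il11ra1 like Akap7 (0.934), Socs3 like Acvrl1 (0.961) and Stat3 like Tap2 (0.962).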

How the data were processed

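Droplet single-cell RNA libraries (10x Genomics) were made from dissociated distal colon adenomas. Cell Ranger 2.1.1, Seurat and the mm10 build are named in the submitters' processing notes. The authors deposited 1 matrix of natural log values, ln(1 + UMIs per 10000) for 21041 genes and 14097 cells, per the values themselves, with cell types, epithelial subtypes and CIN classes. UMI counts were recovered from the deposited natural log values; all nonzero values came out whole within 0.01. No count model was run and the planned quantities did not change with the unit. Cells held 801 to 109676 UMIs.

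With 1 library a class there was no test. Levels, exact binomial shares, shares expected after thinning to 2000 UMIs and exact conditional binomial intervals were computed in Python 3.11.15 with SciPy 1.17.1, pandas 2.3.3 and numpy 2.4.6, drawn with matplotlib 3.10.9, and tested on simulated data. A class with 0 UMIs was set to 3 UMIs. Intervals and limits cover counting error only. No doublet caller was run; leaving out the 5% of cells with the most UMIs was an alternative.

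All 10 members are reported. From each pathway list and type, up to 4 measured genes with at least 30 UMIs and the largest ratios could be named. Similar genes were the 3 with the highest r of log2(level + 0.05), at mean levels of at least 0.1, without predicted genes. Members, lists and markers were chosen with earlier results of these data known. Genes Il31 and Il11ra2 were not analysed here.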

Additional observations from a re-analysis of the deposited data

Results flagged for a closer look

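Lif went opposite ways in 2 cell types under the same contrast. Its ratio of CIN_high over CIN_low was 1.54 in epithelial cells, with levels of 0.370 in CIN_high and 0.241 in CIN_low, and 0.385 in myeloid cells, with levels of 0.0951 in CIN_high and 0.247 in CIN_low. Osmr likewise had a ratio of 1.55 in epithelial cells, with levels of 0.141 in CIN_high and 0.0910 in CIN_low, and of 0.538 in pericytes, with levels of 1.44 in CIN_high and 2.67 in CIN_low. With 1 library a class, the difference between types was not tested for either gene.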

How the results depend on the processing

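Of 21 ratios of at least 1.5-fold over the 6 types, 10 kept their call under every alternative that recomputed the ratio. Of the 143 values of all 21, 122 did so. A gene no longer measured counted as a changed call even with its ratio past the line, as for pericyte Lif without the top cells (0.466). The 2 values that reversed were those of Osm in pericytes, 5.23 without cells high in myeloid markers and 1.19 without the top cell of each gene. Only 2 UMIs in CIN_high and 12 in CIN_low lie behind the Osm ratio over all pericytes. Asking for a fold of 2 gave 1 in place of 3 differing genes in epithelial cells, 4 in place of 7 in pericytes, 1 in place of 4 in myeloid cells, 1 in place of 2 in B cells and 6 in place of 23 over subtypes. Asking for 30 UMIs gave 4 in pericytes, 0 in B cells and 12 over subtypes. A standardised subtype mix left 1 in epithelial cells, leaving out the top cells left 4 in pericytes, leaving out cells high in myeloid markers left 1 of 2 in T and NK cells, and summed UMIs left 1 in B cells. The cause was not tested. Leaving out top cells, myeloid-high cells, myeloid cells with a fibroblast UMI, or the complement subtype were alternatives chosen after seeing the data. No paired analysis was possible because each class is 1 library. Low counts limit Il11 outside fibroblasts (at most 67 UMIs in a type and library) and Osmr in myeloid cells (71 UMIs in CIN_high, 15 in CIN_low).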

Other observations

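Ligand UMIs met in the same myeloid cells. Among CIN_high myeloid cells with a Lif UMI, 26.9% also had an Il6 UMI (25 of 93), against 5.22% of those without Lif, at median depths of 6803 UMIs with Lif and 5663 without. In CIN_low these shares were 34.2% (111 of 325) of cells with Lif and 6.57% of cells without, at 7504 UMIs with Lif and 6032 without. Of myeloid cells with Il6, 66.5% in CIN_high and 76.9% in CIN_low also had Osm, against 41.6% in CIN_high and 59.6% in CIN_low of cells without Il6. Median depths were 6821 UMIs with Il6 and 5588 without in CIN_high, and 8667 with and 5892 without in CIN_low. Both marker sides were pooled here. The mononuclear side held 165 of the 173 CIN_high and 393 of the 441 CIN_low myeloid cells with Il6. It also held 85 of the 93 CIN_high and 266 of the 325 CIN_low myeloid cells with Lif. The part of this mix in the shares was not tested. In CIN_high fibroblasts, Il6 was found in 22.1% of cells with Il11 (13.4 to 33.0) and in 15.6% of cells without (13.3 to 18.2). These intervals overlapped, and median depths were 8941 UMIs with Il11 and 6609 without.

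The cells that the annotation leaves unnamed, 18 in CIN_high and 2 in CIN_low, had a Socs3 level of 13.8 UMIs per 10000 in CIN_high, with a UMI in 16 of the 18 cells, and of 2.30 in CIN_low, from 3 UMIs. Their Il6st level was 3.21 in CIN_high and 4.99 in CIN_low.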
